A study of Mus musculus with 4 samples.

Results

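Levels of 8 genes of small GTPases and their activators were followed through the cells of the embryonic medial ganglionic eminence (MGE), from progenitors through newborn neurons to neuron subtypes. The genes are the atypical GTPases Rnd2 and Rnd3, the classical GTPases Rac1, Rac3, Cdc42 and Rhoa, and the exchange factors Tiam1 and Tiam2, and all 8 were found among the 32285 genes counted. They were selected on their levels across the cell groups in earlier results of these data and taken here by name, so their levels across cell classes are given as a description, without a test. The transcripts of single cells had been counted by 10x Genomics 3′ droplet sequencing of MGE dissected from mouse embryos at e14.5. There were 2 libraries labelled St18(-/-), called null here, and 2 labelled wildtype, called WT, all on a strain given as C57/BL6 ICR mix. The null allele, from which internal exons had been removed by a germline E2a-Cre, was carried in the whole animal. Null embryos and wildtype littermates came from heterozygous parents, were genotyped by PCR during dissection and were pooled by genotype before dissociation, so each library is a pool of embryos. St18 is a zinc finger transcription factor, and the comparison asks which transcripts differ in MGE cells that lack it.

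Small GTPases of this kind switch between a GTP-bound form that engages effectors and a GDP-bound form, and set the actin and microtubule organisation behind cell shape, division and migration. Rac and Cdc42 drive protrusion, RhoA drives actomyosin contraction through its kinases, and exchange factors such as the Tiam proteins load Rac with GTP. Rnd proteins hydrolyse GTP hardly at all and are set by their abundance, and they oppose RhoA signalling. In the developing cortex, the proneural factor Neurog2 is known to activate Rnd2, and Rnd2 and Rnd3 promote the radial migration of newborn neurons. Rac1 is found in most cell types, whereas Rac3 is largely neuronal.

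In the GENCODE M21 annotation of GRCm38, all 8 are protein-coding genes. Rnd2 lies on chromosome 11 (101464999 to 101471853, plus strand), Rnd3 on chromosome 2 (51130438 to 51149111, minus strand), Rac1 on chromosome 5 (143503634 to 143528036, minus strand) and Rac3 on chromosome 11 (120721470 to 120723969, plus strand). Cdc42 lies on chromosome 4 (137319696 to 137357720, minus strand), Rhoa on chromosome 9 (108306129 to 108337934, plus strand), Tiam1 on chromosome 16 (89787111 to 90143769, minus strand) and Tiam2 on chromosome 17 (3326573 to 3531344, plus strand). No gene counted in these libraries overlaps a member on its own strand. Rnd2, Rac1, Rhoa and Tiam2 each overlap a gene on the opposite strand.

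The promoters of Rnd3 and Rac3 are shown because these genes had different courses, Rnd3 being highest in newborn neurons and Rac3 in neurons. RefSeq windows (GRCm38.p6) were found for 6 of the 8 members, and not for Rnd2 and Rac1. The 250 bases before the start are given from 5′ to 3′ on the strand of the gene, chr2:51149112-51149361 (minus strand) for Rnd3 and chr11:120721218-120721467 (plus strand) for Rac3. Each window was searched on both strands for 2 forms of the E-box that proneural factors bind, CAGCTG, which reads alike on both strands, and CATCTG, whose other strand reads CAGATG. Matches are in capitals.
Rnd3: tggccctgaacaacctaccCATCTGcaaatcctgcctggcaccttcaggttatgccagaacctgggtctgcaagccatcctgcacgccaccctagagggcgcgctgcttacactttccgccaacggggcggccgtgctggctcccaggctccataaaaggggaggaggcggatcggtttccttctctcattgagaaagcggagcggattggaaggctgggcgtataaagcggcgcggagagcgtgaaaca
Rac3: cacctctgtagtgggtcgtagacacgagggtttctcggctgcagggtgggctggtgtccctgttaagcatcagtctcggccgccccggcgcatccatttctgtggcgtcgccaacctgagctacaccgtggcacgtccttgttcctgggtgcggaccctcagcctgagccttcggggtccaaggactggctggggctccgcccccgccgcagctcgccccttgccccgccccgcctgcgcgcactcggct
The Rnd3 window held 1 CATCTG and no CAGCTG, so no matches overlapped, and the Rac3 window held neither. Of 32851 promoter windows of this length in the same table, 14.4% held CATCTG on either strand and 13.0% held CAGCTG, so a single match is common and says nothing about binding.

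The libraries held 70991150 to 92984713 unique molecular identifiers (UMIs), and 18267 cells passed at least 3000 UMIs, at most 10% mitochondrial UMIs and the removal of likely doublets. They fell into 7820 progenitors, 1201 newborn neurons and 8639 neurons, beside 326 unnamed cells, 153 erythroid cells, 96 microglia and 32 oligodendrocyte precursor cells. Libraries shared 4 to 11 barcodes with each other. The library called null replicate 2 here, where replicate numbers follow accession order, stood apart, with a median of 9352 UMIs per cell against 6186 to 6998 in the others and 489 barcodes rejected for mitochondrial UMIs against 67 to 185. St18 was at 18.8 and 56.5 UMIs per 1000000 UMIs of the class (CPM) in neurons of null replicates 1 and 2 and at 30.7 and 41.9 in WT, and in progenitors and newborn neurons, too, null replicate 1 lay below and null replicate 2 above both WT libraries. Its level thus did not separate the genotypes. The deleted exons are internal and 3′ UMIs lie outside them, so the deletion itself is not seen in these counts and this level does not settle the labels. Neuron cluster 3 made up 3.94% and 0.783% of neurons and newborn neurons in the null libraries against 18.05% and 14.52% in WT. Some other groups overlapped between genotypes, among them neuron cluster 16, at 1.61% and 3.82% in the null libraries and 1.27% and 2.71% in WT. Progenitor cluster 9 also overlapped, at 3.08% and 9.29% of progenitors in the null libraries and 4.80% and 4.65% in WT. Cluster 3 was picked from many groups, so its share does not settle the labels either. Comparisons of genotypes below are also given without null replicate 2. Xist was at 585 and 1488 CPM in neurons of the null libraries and at 0.249 and 0 in WT, so sex differed between the pools. Female cells were thus found in the null pools and hardly any in WT, and sex cannot be told apart from genotype where all cells are compared. The scaling also matters, because the median gene was 0.19 higher on the log2 scale in null than in WT progenitors by CPM alone, 0.14 in neurons and 0.12 in newborn neurons. The source of this shift was not tested. The fold changes between genotypes below are relative to that shift (TMM normalization), whereas CPM values carry it.

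Classes had been assigned from scores over the markers of progenitors and neurons, so the levels of these markers describe the classes and are no check of them. The summed level of 10 progenitor markers was 5012 to 5995 CPM in progenitors, 1682 to 1871 in newborn neurons and 805 to 1037 in neurons, and that of 8 neuron markers was 1253 to 1469, 3406 to 3841 and 5687 to 6512 CPM. No marker of either list was at 0 in any library. The 8 newborn neuron markers did not peak in the class named by them. Their summed level was 1628 to 1890 CPM in progenitors, 1130 to 1451 in newborn neurons and 573 to 735 in neurons. Newborn neurons were sought among neuron clusters only, and the part of this rule in that order was not tested. Of the clusters behind the classes, 1 of 809 cells, led by Hist1h2bc and Dll1 and counted with the progenitors, had nearly equal scores for both (0.097 for progenitors and 0.063 for neurons). Free RNA in the droplets held the members too, at 31.6 to 76.6 CPM for Rac3 and 10.5 to 27.2 for Tiam2 in droplets under 100 UMIs, and its part in the levels was not tested. Erythroid cells, which should lack neuronal transcripts, held 1.69 CPM of Rac3, 2.25 of Rnd2, 11.3 of Rnd3 and no UMI of Tiam1 or Tiam2.

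Rnd2 and Rnd3 were both highest in newborn neurons. Rnd2 was at 57.8 and 60.6 CPM in progenitors of the null libraries and 51.5 and 56.8 in WT, at 175.2 and 175.0 in null newborn neurons and 160.7 and 167.5 in WT, and at 95.6 and 109.2 in null neurons and 100.8 and 88.9 in WT. The 3 classes did not overlap, and newborn neurons exceeded progenitors by 2.89- to 3.12-fold in every library. Cells counted as progenitors were mixed in this respect, with group means from 19.0 CPM in radial glia-like cells to 157 in progenitor cluster 2. That cluster overlapped newborn neurons in Rnd2, and whether it holds newborn neurons was not examined. Rnd3 was at 245.1, 259.2, 216.9 and 219.6 CPM in progenitors (null replicates 1 and 2, then WT replicates 1 and 2, the order of all lists of 4 here), at 464.7, 481.9, 411.4 and 416.7 in newborn neurons and at 221.3, 222.7, 189.0 and 163.1 in neurons. Newborn neurons were thus 1.86- to 1.90-fold above progenitors, and neurons were at 0.743 to 0.903 of the progenitor level, with progenitors and neurons overlapping. Neurons held Rnd3 at 0.391 to 0.476 and Rnd2 at 0.531 to 0.628 of the level in newborn neurons.

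Tiam2 had the same course as Rnd2, and Tiam1 did not. Tiam2 was at 19.8, 23.2, 21.7 and 18.1 CPM in progenitors, at 80.0, 88.1, 98.9 and 97.1 in newborn neurons and at 37.0, 47.5, 42.2 and 38.9 in neurons, with no overlap between the classes. Newborn neurons exceeded progenitors by 3.8- to 5.36-fold, the largest such ratio among the 8 genes in each library. Tiam1 went from 27.7, 37.6, 23.7 and 26.0 CPM in progenitors through 30.3, 41.4, 33.4 and 26.8 in newborn neurons to 43.6, 52.3, 36.5 and 39.7 in neurons. Its neurons exceeded progenitors in each library, by 1.39- to 1.57-fold, although the ranges of the 3 classes overlapped.

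Rac1 and Rac3, the near-identical Rac proteins, behaved differently. Rac1 was at 173.7, 168.5, 143.8 and 137.2 CPM in progenitors and 160.4, 158.8, 144.6 and 139.0 in neurons, a ratio of 0.924 to 1.01, and at 165.2, 154.0, 136.7 and 113.9 in newborn neurons. Rac3 was low in progenitors, at 10.8, 11.3, 11.6 and 14.6 CPM, and in newborn neurons, at 11.9, 12.6, 13.2 and 18.8 CPM from only 21 to 30 UMIs per library. In neurons it reached 61.6, 41.8, 50.5 and 73.6 CPM, 3.69- to 5.71-fold above progenitors. Progenitors and newborn neurons overlapped, and every neuron value lay above both.

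Cdc42 and Rhoa varied less, and in opposite directions. Cdc42 was at 285.0, 256.2, 270.8 and 276.3 CPM in progenitors, at 296.2, 263.7, 263.4 and 267.3 in newborn neurons and at 363.2, 302.5, 332.3 and 367.1 in neurons, 1.18- to 1.33-fold above progenitors of the same library. Rhoa was at 221.2, 191.5, 212.0 and 201.9 CPM in progenitors, at 166.4, 131.3, 160.7 and 146.7 in newborn neurons and at 138.6, 127.7, 137.3 and 136.3 in neurons, or between 0.627 and 0.675 of the progenitor level. Progenitors and neurons did not overlap for either gene.

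By a fixed call of at least 2-fold in the same direction in each of the 4 libraries, with 5 CPM in the higher class, 1 member, Rac3, was higher in neurons than in progenitors and none was lower, where 10.8% of 10308 genes were called higher and 11.6% lower. Between newborn neurons and progenitors, Rnd2 and Tiam2 were called higher and none lower, against 2.33% and 8.65% of 9851 genes. Between neurons and newborn neurons, Rac3 was called higher and Rnd3 lower, against 5.91% and 1.4% of 9728 genes. Tiam2 just missed the call in neurons against progenitors, at 1.87-fold in null replicate 1 and 1.94-fold in WT replicate 1. Nothing is read from these shares, since the members were picked with such levels known.

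**Figure D1:**
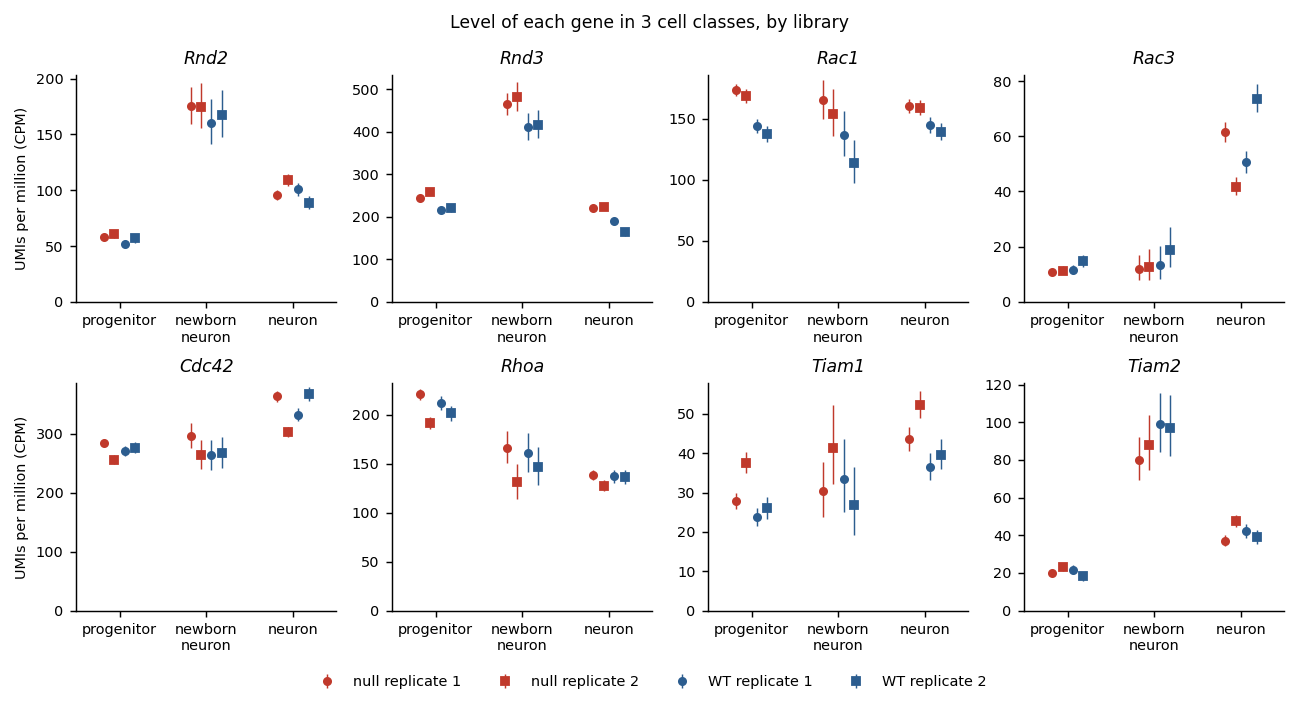
Level of each of the 8 genes (y axis, CPM) in progenitors, newborn neurons and neurons (x axis), with 1 point per library, null in red and WT in blue, circles for replicate 1 and squares for replicate 2. Bars are 95% Poisson intervals, which cover counting error only. Rnd2, Rnd3 and Tiam2 peak in newborn neurons, Rac3 stands at 10.8 to 14.6 CPM in progenitors and 41.8 to 73.6 in neurons, and Rac1 keeps to 114 to 174 throughout.

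The share of cells with at least 1 UMI followed the levels once every cell was thinned to 3000 UMIs. Of progenitors, newborn neurons and neurons, 16.2%, 37.9% and 23.9% held an Rnd2 UMI, 48.7%, 69.9% and 38.3% an Rnd3 UMI and 6.15%, 22.6% and 10.8% a Tiam2 UMI. For Rac3 the shares were 3.47%, 4.41% and 12.8%, and for Tiam1 8.49%, 9.16% and 11.7%. Without thinning, 35.3%, 58.8% and 39.0% held an Rnd2 UMI and 10.2%, 7.83% and 23.8% a Rac3 UMI. Of 153 erythroid cells, none held a UMI of Rnd2, Rac3, Tiam1 or Tiam2 after thinning. The exact Clopper-Pearson interval allows a share of up to 2.38% for each of these genes at that depth. In the same cells without thinning, 2.61% held an Rnd2 UMI and 1.96% a Rac3 UMI. Their median depths were 9932 to 13003 UMIs per library, against 5508 to 8154 in neurons. The widely used GTPases were found in 56.7%, 56.5% and 62.4% (Cdc42), 45.5%, 36.6% and 33.1% (Rhoa) and 37.3%, 34.2% and 36.9% (Rac1) of the 3 classes, and in 8.50%, 9.80% and 5.23% of erythroid cells. Of 96 microglia, which are motile macrophages, 76.0% held Cdc42, 78.1% Rhoa and 54.2% Rac1.

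Progenitors and neurons were divided into 24 groups of cells, by markers where at least 3 of a subtype were found and by cluster number elsewhere, in a clustering that did not use the members. A library with fewer than 20 cells in a group gave no level there, which applied to null replicate 2 in neuron cluster 3 (16 cells) and to WT replicate 1 in neuron cluster 19 (6 cells), and progenitor cluster 16 (48 cells, 3 to 18 per library) was left out. Among progenitors, radial glia-like cells, the apical stem cells, had the lowest mean Rnd2, at 20.8, 21.0, 16.0 and 18.3 CPM, which overlapped progenitor cluster 9 (27.6 ± 18.4, SD, n = 4), and hardly any Tiam2, at 3.21, 4.83, 2.35 and 1.83 CPM from 6 to 27 UMIs. They had the second highest Rhoa of the 24 groups, at 265.5, 245.1, 262.4 and 250.1 CPM, behind progenitor cluster 9 (261.1 ± 28.6, SD, n = 4). Dividing basal progenitor-like cells had Rhoa at 197.3 ± 12.9 CPM, Rnd2 at 32.0 ± 2.26, Rnd3 at 239.5 ± 15.5 against 148.4 ± 26.8 in radial glia-like cells, and Tiam2 at 8.42 ± 3.26 (SD, n = 4 libraries). For Rhoa this was the single break between neighbours in the order of the 24 groups, as every radial glia-like value lay above every dividing basal value.

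Other cells counted as progenitors had Rnd2, Rnd3 and Tiam2 levels nearer to those of newborn neurons. Progenitor cluster 2, led by Maf, Ripor2, Hist1h2bc, Rprm and Mir124a-1hg, had Rnd2 at 170.8, 181.3, 151.4 and 124.4 CPM and Rnd3 at 421.7, 462.9, 394.8 and 351.2. Hist1h2bc also led the cluster of 809 cells that scored nearly alike for progenitors and neurons. How far these clusters share cells was not examined, nor was whether progenitor cluster 2 holds newborn neurons. Progenitor cluster 11, led by Shh, Sel1l3 and St18, had Rnd2 at 139.9, 155.1, 85.5 and 133.2, Rnd3 at 405.2, 420.9, 354.1 and 435.0 and Tiam2 at 75.2, 78.2, 68.9 and 74.9. Rnd2 in cluster 2 and Rnd3 in both clusters overlapped newborn neurons, and Tiam2 in cluster 11 did not. Progenitor cluster 0 had Tiam2 at 54.0, 55.4, 57.5 and 43.1 CPM and Rac3 at 7.29, 4.45, 6.07 and 12.3.

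**Figure D2:**
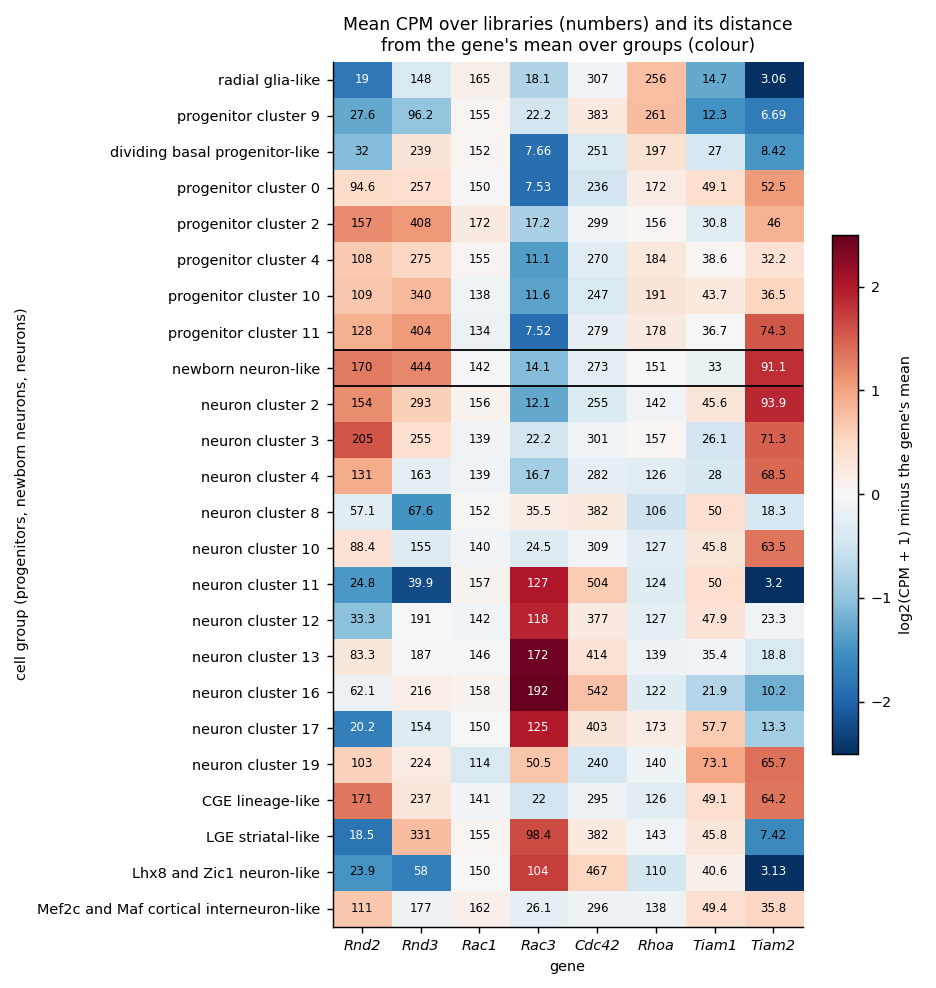
Heat map of the 8 genes (x axis) in 24 groups of cells (y axis), progenitors above, newborn neurons between the black lines and neurons below. Numbers are mean CPM over libraries and colour is log2(CPM + 1) minus the gene's mean over groups. The Rnd2 and Tiam2 columns are both blue in radial glia-like and LGE striatal-like cells and red in newborn neurons, the Rac3 column is dark red from neuron cluster 11 to 17, and the Rac1 column is nearly white, at 114 to 172 CPM.

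Neuron subtypes differed most in Rac3, Tiam2, Rnd2 and Rnd3. Neuron cluster 3, led by Npy, Mt1 and S100a10, had the highest mean Rnd2, at 208.1 CPM in null replicate 1 and 198.1 and 209.3 in WT, followed by CGE lineage-like neurons at 151.0, 143.6, 227.8 and 162.6. Rnd2 was itself among the leading genes of cluster 3, although the clustering had not used it. LGE striatal-like neurons had the lowest mean Rnd2, at 17.0, 25.3, 21.9 and 9.84 CPM, but had Rnd3 at 371.9, 345.0, 326.3 and 279.4, above every value of CGE lineage-like cells (237.4 ± 32.6, SD, n = 4). Neuron cluster 11, led by Cxcl14, Hcrtr2 and Gprin3, had the lowest mean Rnd3, at 36.0, 42.3, 48.6 and 32.8 CPM, with Rnd2 at 24.8 ± 5.75. Lhx8 and Zic1 neuron-like cells, whose leading gene Slc18a3 encodes the vesicular acetylcholine transporter, were close to it, with Rnd3 at 53.7, 92.7, 43.4 and 42.3 CPM, Rnd2 at 23.9 ± 4.31 and Tiam2 at 3.13 ± 2.49. This group is named for 4 of its markers, Lhx8, Zic1, Zic4 and Gbx1. Neuron cluster 4, in which only Lhx8 and Zic1 were found and which stayed unnamed, had other levels, with Rnd2 at 130.7 ± 15.2, Rnd3 at 163.3 ± 13.8 and Tiam2 at 68.5 ± 10.9 CPM. Tiam2 was highest in neuron cluster 2, led by Rfx4, Neb and Epha4, at 88.3, 87.7, 97.4 and 102.1 CPM, which overlapped newborn neurons. That cluster held 3 of the 8 newborn neuron markers, below the 4 required after the marker counts had been seen, and made up 11.8% and 23.3% of the neurons and newborn neurons of the null libraries and 4.44% and 3.53% of those of WT.

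Rac3 split the neurons into a high and a low set. It was highest in neuron cluster 16, led by Pcp4, Cited1 and Arhgdig, at 204.1, 117.9, 216.3 and 231.2 CPM from 25 to 54 UMIs, and in neuron cluster 13, at 204.5, 90.7, 196.6 and 194.9. The leading genes of cluster 13, Neurod6 and Neurod2 of excitatory neurons, came mainly from null replicate 2, whose 58 cells there held 505 Neurod6 UMIs against 10, 0 and 12 in 106, 28 and 79 cells of the other libraries, and that library had the lowest Rac3. Of those 58 cells, 17 (29.3%) held a UMI of Neurod6 or Neurod2, so most held neither. Neuron clusters 11, 17 and 12, Lhx8 and Zic1 neuron-like and LGE striatal-like cells had means of 98.4 to 127 CPM. After them came the break in the order, with neuron cluster 19 at 50.5 ± 10.8 CPM (SD, n = 3). Mef2c and Maf cortical interneuron-like cells had 29.5, 23.4, 19.3 and 32.3, CGE lineage-like cells 26.1, 22.3, 13.4 and 26.1, and neuron cluster 4, led by Shh, Kitl, Lhx8, Parm1 and Zic1, 13.6, 10.6, 15.9 and 26.7, which overlapped progenitor cluster 2 at 17.2 ± 5.31. Cells of cluster 16 had a median of 3606 UMIs and those of cluster 13 one of 7242, and the part of depth in these levels was not tested. Cdc42 was highest in several of the same groups, at 572.6, 483.5, 545.0 and 565.1 CPM in cluster 16, 528.0, 451.6, 545.6 and 492.4 in cluster 11 and 467.4 ± 50.2 in Lhx8 and Zic1 neuron-like cells, against 295.5 ± 19.5 in Mef2c and Maf cortical interneuron-like cells.

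Rhoa was lowest in neuron cluster 8, led by Sst and Lypd6, at 124.3, 89.6, 82.7 and 125.4 CPM, and in Lhx8 and Zic1 neuron-like cells, at 104.0, 101.9, 115.7 and 119.2. Tiam1 had its highest mean in neuron cluster 19, led by Snhg11 and Htr2c, at 61.0, 93.2 and 65.1 CPM in the 3 libraries with a level there. These values came from only 8 to 18 UMIs and overlapped neuron cluster 17 at 57.7 ± 13.1 (SD, n = 4). Tiam1 was lowest in progenitor cluster 9, at 12.3 ± 6.94 from 2 to 10 UMIs, and in radial glia-like cells, at 14.7 ± 2.53. From the highest to the lowest group, mean levels spanned 30.7-fold for Tiam2, 25.6-fold for Rac3, 11.1-fold for Rnd2 and for Rnd3, 5.95-fold for Tiam1, 2.47-fold for Rhoa, 2.30-fold for Cdc42 and 1.51-fold for Rac1. Most neighbours in the order of the 24 groups could not be told apart by library, since the ranges of 21 to 23 of the 23 neighbouring pairs overlapped for each gene. Over all 276 pairs of groups, the ranges were separate for 188 pairs in Rnd3 and Tiam2, 186 in Rnd2, 168 in Rac3, 163 in Cdc42, 139 in Rhoa, 97 in Tiam1 and 0 in Rac1. The members were picked with such levels known, and separate pairs were not counted over all genes. Nothing is therefore read from these counts of pairs.

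The balance within each related pair shifted between classes. Of the UMIs of Rac3 and Rac1 together, Rac3 made up 5.84%, 6.29%, 7.47% and 9.64% in progenitors, 6.74%, 7.55%, 8.82% and 14.1% in newborn neurons and 27.7%, 20.8%, 25.9% and 34.6% in neurons. Neuron values lay above all others, with exact 95% Clopper-Pearson intervals of 26.3% to 29.1% in null replicate 1 and 19.4% to 22.3% in null replicate 2. Tiam2 made up 41.7%, 38.1%, 47.8% and 41.1% of the Tiam UMIs in progenitors, 72.6%, 68.1%, 74.8% and 78.4% in newborn neurons and 45.9%, 47.6%, 53.6% and 49.5% in neurons, where only newborn neurons stood apart. Rnd2 made up 19.1%, 19.0%, 19.2% and 20.5% of the Rnd UMIs in progenitors, 27.4%, 26.6%, 28.1% and 28.7% in newborn neurons and 30.2%, 32.9%, 34.8% and 35.3% in neurons, with no overlap between the classes. Capture at the 3′ end can differ between genes, so these are shares of UMIs, not of transcripts. Between genotypes, the smallest p that 2 libraries against 2 allow is 0.333 (two-sided exact permutation test), so no share could pass 0.05. The libraries of the genotypes did not overlap in 7 of the 9 combinations of share and class, with null below WT in each, and null replicate 1 alone lay below both WT libraries in 7. The combinations come from the same libraries, and how many other gene pairs part in this way was not counted. Nothing is therefore read from these counts. The largest difference was in Tiam2 of newborn neurons, whose mean ± SD was 70.3% ± 3.19 over the 2 null libraries and 76.6% ± 2.56 over the 2 WT libraries (exact permutation p = 0.333), and null replicate 1 alone was at 72.6%.

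**Figure D3:**
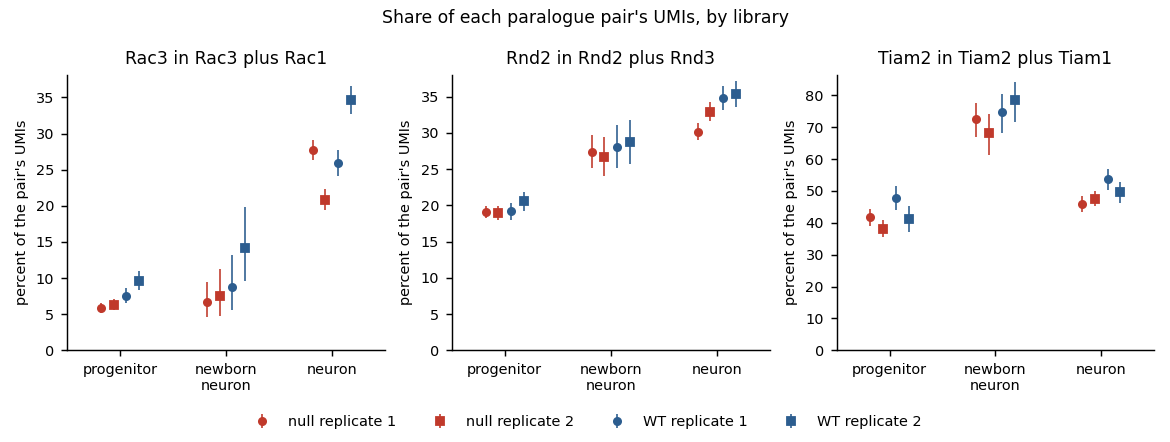
Share of Rac3, Rnd2 and Tiam2 in the UMIs of their pair (y axis, percent) in progenitors, newborn neurons and neurons (x axis), with 1 point per library and exact 95% intervals, null in red and WT in blue. The Rac3 share is 20.8% to 34.6% in neurons, and the Tiam2 share peaks in newborn neurons at 68.1% to 78.4%.

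Across 34 clusters of at least 100 cells, the member most like Rnd2 was Tiam2, with a Pearson correlation of log2(CPM + 1) of 0.93, and the member most like Rac3 was Cdc42, at 0.91. Rnd2 and Rnd3 were less alike (0.44), as were Tiam1 and Tiam2 (0.46), and Rac1 and Rac3 were not (-0.045). Clusters come from the same 4 libraries and share their depth and free RNA, so these values are descriptions. Outside the members, among 9211 genes, the pattern most like that of Rac3 was that of Pak6 (0.95), a p21-activated kinase, followed by C1qtnf4 (0.95) and the sodium channel gene Scn2a (0.94). For Cdc42 they were Hras (0.95), Vps29 (0.92) and Mlf2 (0.91), and for Rhoa Sfr1 (0.93), Eef1d (0.92) and Erf (0.92). Rnd2 was most like Tgfb3 (0.89), Rwdd3 (0.88) and Dclk2 (0.87), a doublecortin-like kinase, and Tiam2 like Dclk2 (0.90), the neuropeptide gene Npy (0.88) and Prox1os (0.85). Rnd3 was most like Rab31 (0.85), Npc2 (0.77) and Adcyap1r1 (0.75), Tiam1 like Ssh2 (0.91), Rtf1 (0.90) and Ttbk2 (0.90), and Rac1 like Rest (0.68), Gdi2 (0.66) and Aldoc (0.66).

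None of the 8 members passed an adjusted p of 0.05 between null and WT in any class in the quasi-likelihood test of edgeR (Benjamini-Hochberg adjusted over all genes tested), where 0.0294% of all genes were called in progenitors, 0.549% in newborn neurons and 0.0748% in neurons. DESeq2 gave an adjusted p to 5 members in progenitors (not to Rac3, Tiam1 and Tiam2), to 2 in newborn neurons (Rnd3 and Cdc42) and to all 8 in neurons, and none of those passed. At an unadjusted p under 0.05 in edgeR there was 1 member in progenitors, 1 in newborn neurons and 0 in neurons, beside 17.0%, 11.02% and 17.1% of all genes. Without null replicate 2, the members that passed were 2 in progenitors, 0 in newborn neurons and 0 in neurons, beside 17.1%, 4.0% and 3.0% of all genes. In the fits without 1 library, the library left alone for its genotype was assumed to vary like the other genotype, so a member that passed there has no replicate check of its own. The largest neuron cluster differed between libraries, being cluster 0 in null replicate 1, cluster 2 in null replicate 2 and cluster 3 in both WT libraries. The makeup of the neuron class thus differed between libraries, also within the null genotype.

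The lowest adjusted p among the members was that of Rac3 in progenitors, with a log2 fold change of -0.43 ± 0.15 (SE, edgeR quasi-likelihood test, adjusted p = 0.222). Its null values of 10.8 and 11.3 CPM lay below the WT values of 11.6 and 14.6. It was -0.39 ± 0.14 without null replicate 2 (edgeR adjusted p = 0.0321), -0.46 ± 0.15 without null replicate 1 (edgeR adjusted p = 0.0116), -0.59 ± 0.21 without WT replicate 1 (edgeR adjusted p = 0.574) and -0.27 ± 0.21 without WT replicate 2 (edgeR adjusted p = 0.850), so its size moved with the WT library left out. In newborn neurons Rac3 differed by -0.49 ± 0.32 (edgeR adjusted p = 0.595), and by -0.49 ± 0.34 without null replicate 2. It was -0.72 without WT replicate 1, -0.24 without WT replicate 2 and -0.05 ± 0.39 with equal numbers of cells per cluster. In neurons the difference of -0.40 ± 0.22 (edgeR adjusted p = 0.375) rested on null replicate 2, the lowest library at 41.8 CPM, and on WT replicate 2, the highest at 73.6. It was -0.10 ± 0.17 without the first (edgeR adjusted p = 0.805) and -0.12 ± 0.23 without the second (edgeR adjusted p = 0.942), against -0.74 ± 0.19 without null replicate 1 (edgeR adjusted p = 0.0247) and -0.63 ± 0.23 without WT replicate 1 (edgeR adjusted p = 0.224).

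Rnd2 differed little, at -0.06 ± 0.11 in progenitors, -0.02 ± 0.15 in newborn neurons and -0.04 ± 0.13 in neurons (log2 fold change ± SE), and at -0.026, 0.015 and -0.08 without null replicate 2. With library totals as the scaling it was at 0.13, 0.095 and 0.11, so its sign turned with the scaling, and in neurons it was at 0.22 in cells of male embryos and 0.27 without neuron cluster 3, where it was highest. Rnd3 was at 0.02 ± 0.11, 0.07 ± 0.14 and 0.19 ± 0.13 and, without that library, at 0.04, 0.09 and 0.24. In neurons it was 0.07 without WT replicate 2, 0.32 without WT replicate 1 and 0.09 with equal numbers of cells per cluster. Its CPM values in null lay above those of WT in each class, as did those of Rac1. CPM carries the upward shift of the median gene in null, and the share of all genes that part in this way was not counted. Nothing is therefore read from this order. Tiam2 differed most in newborn neurons, by -0.34 ± 0.17 (edgeR adjusted p = 0.444) and -0.37 ± 0.15 without null replicate 2 (edgeR adjusted p = 0.174), with the null values of 80.0 and 88.1 CPM below the WT values of 98.9 and 97.1. In cells of male embryos alone it was -0.05 ± 0.21 (edgeR adjusted p = 0.973). In progenitors and neurons of both sexes it was at -0.09 ± 0.13 and -0.09 ± 0.14, and at -0.14 and -0.22 without that library, and its sign turned there with library totals as the scaling, at 0.11 and 0.059. Tiam1 was at 0.20 ± 0.14, 0.10 ± 0.23 and 0.18 ± 0.13 in the 3 classes, and at 0.04, -0.08 and 0.10 without null replicate 2. In progenitors it passed without null replicate 1, at 0.35 ± 0.10 (edgeR adjusted p = 0.00483).

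Among the widely used GTPases, Rac1 was 0.10 ± 0.12 higher in null progenitors, 0.23 ± 0.16 in newborn neurons and 0.03 ± 0.12 in neurons on the log2 scale, and 0.18 ± 0.06 without null replicate 2 in progenitors, where it passed (edgeR adjusted p = 0.0160). In newborn neurons and neurons it was then at 0.32 and 0.09. Without null replicate 1, Rac1 in progenitors was at 0.0065 ± 0.06 (edgeR adjusted p = 0.947), and in newborn neurons it was at 0.10 without WT replicate 2 and 0.38 without WT replicate 1. Cdc42 was at -0.20 ± 0.13, -0.04 ± 0.15 and -0.21 ± 0.14 and Rhoa at -0.19 ± 0.14, -0.15 ± 0.16 and -0.18 ± 0.12. Cdc42 in newborn neurons turned to 0.081 with library totals as the scaling. Both were near 0 without null replicate 2, at -0.06, 0.08 and -0.04 for Cdc42 and -0.03, 0.03 and -0.07 for Rhoa. With null replicate 2 as the only null library, both passed in progenitors, at -0.35 ± 0.05 (edgeR adjusted p = 1.97e-07) and -0.37 ± 0.05 (edgeR adjusted p = 2.27e-07), and in neurons (edgeR adjusted p = 0.0111 and 0.0324), and Rhoa in newborn neurons (edgeR adjusted p = 0.0393), where 34.7%, 19.6% and 12.2% of all genes passed in progenitors, neurons and newborn neurons. In the 22 groups with a level in all 4 libraries, null replicate 2 was the lowest library in 16 for Cdc42, in 14 for Rhoa and in 11 for Rac3, and the highest in 16 for Tiam1. Null replicate 1 was the highest in 15 groups for Cdc42. Of the WT libraries, replicate 2 was the lowest in 14 for Rac1 and replicate 1 in 13 for Tiam1. The groups come from the same 4 libraries, so they are not replicates. How often other genes are ordered in this way was not counted, and nothing is read from these counts. In neuron cluster 13, Rnd2 was at 232.4 CPM in null replicate 2 and 29.96, 37.5 and 33.4 in the other libraries, where Neurod6 and Neurod2 were also low. Without cluster 13, the difference in neurons was -0.09 ± 0.12 for Rnd2 and -0.42 ± 0.20 for Rac3 (edgeR adjusted p = 0.732 and 0.299). Higher depth and more mitochondrial rejects also went with null replicate 2, and their part in these values was not tested.

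**Figure D4:**
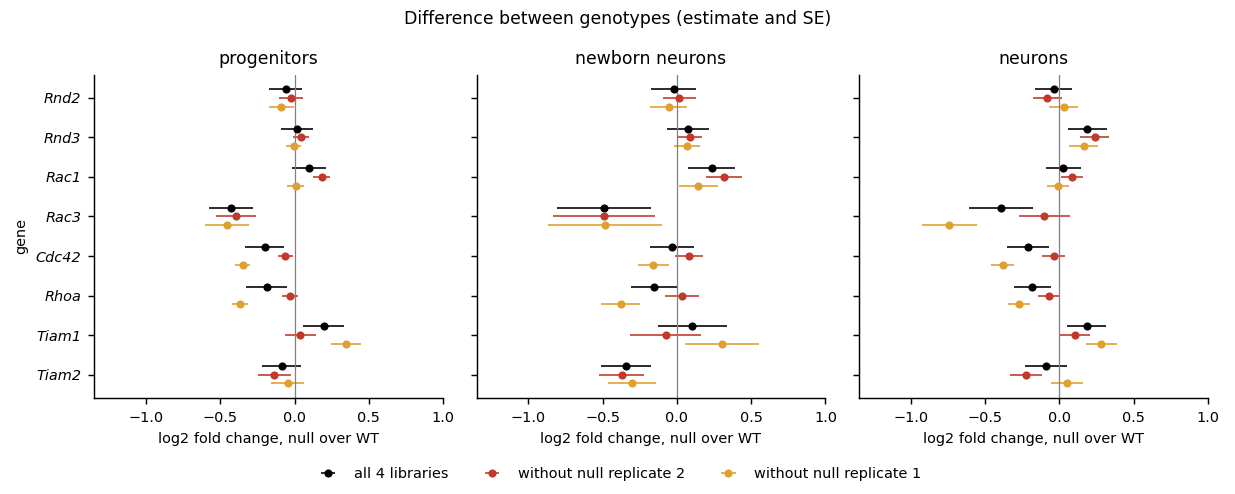
Log2 fold change of null over WT (x axis) with its SE for the 8 genes (y axis) in progenitors, newborn neurons and neurons, with all 4 libraries in black, without null replicate 2 in red and without null replicate 1 in yellow. Rnd2 stays near 0, and without null replicate 2 Cdc42 and Rhoa move towards 0 in progenitors and neurons, as does Rac3 in neurons.

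The difference between genotypes was also compared between neurons and progenitors. No member passed (edgeR quasi-likelihood test, 0.301% of 14268 genes called), and 1 had an unadjusted p under 0.05, beside 7.67% of all genes. This was Rnd3, whose difference was 0.21 ± 0.07 higher in neurons than in progenitors (log2, edgeR adjusted p = 0.384), and 0.17 ± 0.08 without null replicate 2 (edgeR adjusted p = 0.858). It passed without WT replicate 1, at 0.32 ± 0.09 (edgeR adjusted p = 0.0490), and was 0.09 ± 0.09 without WT replicate 2 (edgeR adjusted p = 0.993) and 0.11 ± 0.08 without null replicate 1 (edgeR adjusted p = 0.855).

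A list of 101 other genes of the pathway was described beside the members. Of its 83 genes at 5 CPM or more, 16 were at least 2-fold higher in neurons than in progenitors in all 4 libraries and 15 lower, beside 10.8% and 11.6% of all genes, and the median log2 ratio was 0.31 against 0.05 over all genes. Exchange factors higher in neurons were Vav3, at 16.7, 15.7, 17.0 and 19.0 CPM in neurons and 1.29, 2.70, 1.46 and 3.26 in progenitors, and Elmo1, the partner of the Dock factors, which was 3.52- to 4.66-fold higher. Ect2, the exchange factor of cytokinesis, was 15.1- to 23.4-fold lower in neurons and Dock1 8.22- to 13.8-fold lower, and of the 19 exchange factors at that level 6 were higher and 3 lower. Of 15 GTPase activating proteins, 4 were higher, among them Srgap1 (4.63- to 5.83-fold), a transducer of Slit and Robo signals, and the Rac-specific Chn2 (4.42- to 7.19-fold), and 2 lower, the cytokinesis genes Arhgap11a (8.68- to 14.02-fold) and Racgap1 (9.23- to 11.4-fold). Of 37 effectors, 5 were higher, led by Cdc42ep3 (8.13- to 10.9-fold) and Cdc42ep2 (2.5- to 3.37-fold), and 6 lower, led by the citron kinase gene Cit (8.26- to 12.7-fold) and the formin gene Diaph3 (9.51- to 13.0-fold). Among 8 other GTPases of the family, Rhob was 2.35- to 2.56-fold higher, and Rhoc (6.01- to 8.57-fold) and Rhog (3.8- to 6.30-fold) were lower. Zbtb18, a repressor known to act on Rnd2 in the forebrain, was 2.69- to 4.25-fold lower in neurons. The dissociation inhibitor gene Arhgdia, the 1 of its subgroup at that level and named after its values were seen, was not called.

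**Figure D5:**
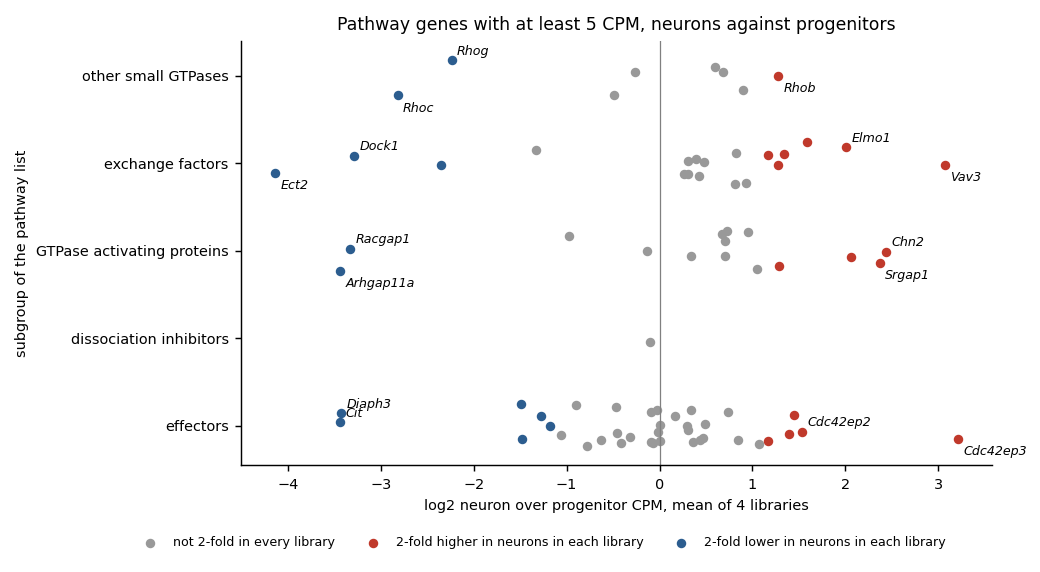
Log2 ratio of neuron to progenitor CPM, mean of 4 libraries (x axis), for the GTPases, exchange factors, activating proteins, dissociation inhibitor and effectors of the pathway list at 5 CPM or more, by subgroup (y axis). Red points were at least 2-fold higher in neurons in each library, blue points at least 2-fold lower, and grey points neither. Ect2, Cit, Arhgap11a and Diaph3 lie farthest left and Cdc42ep3 and Vav3 farthest right.

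Between genotypes, no pathway gene passed an adjusted p of 0.05 within a class by edgeR's quasi-likelihood test, out of 97 tested in progenitors, 75 in newborn neurons and 96 in neurons, nor did any of the 47, 3 and 49 that had an adjusted p in DESeq2. At an unadjusted p under 0.05 there were 13, 6 and 16 by edgeR, or 13.4%, 8.0% and 16.7% of those tested, beside 17.0%, 11.02% and 17.1% of all genes. The median log2 fold change of the list was 0.07, 0.14 and 0.10, beside -0.0038, 0.0019 and -0.0013 over all genes. Without null replicate 2 the counts were 27, 10 and 17, or 27.6%, 13.0% and 17.5% beside 28.1%, 14.3% and 18.5% of all genes, the medians 0.04, 0.03 and 0.05, and 18 genes passed in progenitors (18 of 98 tested, beside 17.1% of all genes) and 0 elsewhere. Without null replicate 1, 38 of 99, 7 of 79 and 21 of 98 passed, beside 34.7%, 12.2% and 19.6% of all genes, with medians of 0.17, 0.18 and 0.17, and without either WT library 0, 0 and 1 passed. Between neurons and progenitors, the difference between genotypes itself differed for 1 of 100 pathway genes, beside 0.301% of all genes. This was the cytokinesis gene Arhgap11a, by 0.59 ± 0.12 on the log2 scale (edgeR quasi-likelihood test, adjusted p = 0.0223), and 7 had an unadjusted p under 0.05, or 7.0% beside 7.67% of all genes. The difference for Arhgap11a was 0.58 ± 0.15 without null replicate 2, and 0.48 without null replicate 1 and without WT replicate 1. Its levels were 14.7, 17.4, 9.38 and 11.5 CPM in neurons and 127.8, 164.5, 131.5 and 137.8 in progenitors, so the null libraries lay above WT in neurons and overlapped it in progenitors.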

How the data were processed

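Gene expression was measured by 10x Genomics 3′ single-cell sequencing in 4 libraries, 2 per genotype. Per the file headers and the methods, the authors deposited raw UMI counts per gene and barcode, made with Cell Ranger (5.0.1 in the processing notes, 4 in the header) against GRCm38, with no filter for cells. Each library is a pool of embryos, and p-values measure the spread between these libraries only. No deposited column was left unused for want of a sample.

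Barcodes were kept from 3000 UMIs and 200 genes upwards, with up to 10% of UMIs mitochondrial. Scrublet called under 0.05% of cells at its own threshold and so had not worked, and the cells with its highest scores, 0.8% per 1000 cells called, were left out instead. Cells were clustered as the methods describe, with Seurat 5.3.0, on 2000 variable genes without the 8 members and the pathway list, with the difference of the S and G2M scores regressed out, 49 principal components and Louvain clustering at a resolution of 1.4. The neuron and the progenitor clusters were each re-clustered. Clusters were named when at least 3 markers of a type were found, and newborn neurons by at least 4 of 8, a number set after the marker counts had been seen. A difference from the study may come from these rebuilt names.

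UMIs were summed per library and class and expressed per 1000000 UMIs of the class (CPM). Null and WT were compared on the summed counts with edgeR 4.0.16 (R 4.3.3, quasi-likelihood test, TMM, filterByExpr, two-sided, Benjamini-Hochberg threshold 0.05) and, as an alternative, DESeq2 1.42.0. The interaction had library and class as terms. The SE beside an edgeR log2 fold change is the absolute fold change divided by the square root of its F statistic. The script was first tested on simulated counts. Levels across classes and groups were described without a test. Exact Poisson and Clopper-Pearson 95% intervals cover counting error only. Likeness was the Pearson correlation of log2(CPM + 1) over clusters of at least 100 cells, for genes reaching 20 CPM. Gene IDs were matched to GENCODE M21 for 99.6% of 32285 genes, and promoters to RefSeq by symbol. The alternatives were other normalizations, filters, UMI minimums, doublet settings, variable genes, cells of male embryos (up to 1 Xist UMI with any Y-linked UMI), equal numbers of cells per cluster and each library left out.

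The members and the gene lists were chosen with earlier results of these data known. Named genes were the 8 members, St18 and Xist, pathway genes past an adjusted p of 0.05, up to 2 pathway genes per subgroup and direction with the largest difference between neurons and progenitors among those called, and the 3 genes most like each member. A gene of the pathway list that the rule names is not reported here. Leading genes of clusters are given as labels only.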

Additional observations from a re-analysis of the deposited data

Results flagged for a closer look

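The difference between null and WT differed between neurons and progenitors for 1 of 100 tested genes of the pathway list, beside 0.301% of all genes. The gene was Arhgap11a, a GTPase activating protein of RhoA in dividing cells. The difference was 0.59 ± 0.12 (SE, log2) higher in neurons than in progenitors (edgeR interaction test, adjusted p = 0.0223), with fold changes of 0.48 ± 0.16 in neurons and -0.08 ± 0.12 in progenitors. Neither passed within its class (edgeR adjusted p = 0.189 and 0.754). The interaction was 0.58 ± 0.15 without null replicate 2 (edgeR adjusted p = 0.0471). It did not pass without null replicate 1 (0.48) or without WT replicate 1 (0.48), with library totals as the scaling (0.51), with no doublets left out (0.55) or in cells of male embryos alone (0.83). Genotypes had 2 libraries each, too few to look for a single library that stood apart within its group.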

How the results depend on the processing

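No paired analysis was possible because the labels give no replicate numbers, which here follow accession order and pair nothing. The count of all genes called between null and WT was 4 in progenitors, 51 in newborn neurons, 10 in neurons and 43 for the interaction. It was unstable when 1 library was left out, running from 13 to 4793, from 3 to 1187, from 68 to 2639 and from 35 to 127, with the highest value in each class without null replicate 1, and 2336, 385, 400 and 36 without null replicate 2. In progenitors the count was 305 by DESeq2, 8 with RLE size factors, 117 with library totals, 851 without the low-count filter, 2 at 5000 UMIs, 90 with no doublets left out and 0 in cells of male embryos. In newborn neurons it was 80 by DESeq2, 17 with library totals, 90 without the filter, 19 at 5000 and 19 at 2000 UMIs, 25 with equal cells per cluster, 9 with no doublets left out and 8 in male cells. In neurons it was 302 by DESeq2, 54 with RLE size factors, 277 with library totals, 93 with no doublets left out, 5 with equal cells per cluster, 1 in male cells, 56 without the cluster of highest Rac3, 34 without that of highest Rnd2 and 89 without that led by Neurod6. For the interaction it was 120 without the filter, 65 with the members among the variable genes, 11 with no doublets left out and 3 in male cells. Higher and lower calls split 2 to 2, 4 to 47, 4 to 6 and 34 to 9, against 82 to 35, 9 to 8, 211 to 66 and 19 to 18 with library totals. The causes were not tested.

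Of 367 recomputed log2 fold changes with an adjusted p, for the 8 members within classes and for Rnd3 and Arhgap11a in the interaction, 317 kept their direction and side of the threshold, 34 changed sign, 11 newly passed and 5 no longer passed. All 11 that newly passed came from leaving out a library. Values that changed sign were as follows. In progenitors, library totals gave Rnd2 0.13 and Tiam2 0.11. In newborn neurons, Rnd2 was 0.095 with library totals, 0.049 at 2000 UMIs, 0.039 with no doublets left out and 0.025 in male cells, Cdc42 was 0.081, 0.012 at 5000 UMIs, 0.013 at 2000 UMIs, 0.013 with equal cells and 0.14 in male cells, and Tiam1 was -0.15 in male cells. In neurons, Rnd2 was 0.11 with library totals, 0.11 at 5000 UMIs, 0.017 with equal cells, 0.22 in male cells and 0.27 without the cluster of highest Rnd2, and Tiam2 was 0.059 with library totals, 0.034 at 5000 UMIs, 0.035 in male cells and 0.16 without that cluster. With 1 library left out, progenitors ran from -0.13 to 0.0035 for Rnd2, -0.0070 to 0.044 for Rnd3 and -0.21 to 0.056 for Tiam2. Newborn neurons ran from -0.056 to 0.015 for Rnd2, -0.16 to 0.079 for Cdc42, -0.38 to 0.033 for Rhoa and -0.076 to 0.30 for Tiam1. Neurons ran from -0.15 to 0.073 for Rnd2, -0.023 to 0.086 for Rac1 and -0.22 to 0.054 for Tiam2. Settings added after seeing the data were male cells for newborn neurons and the interaction, equal cells for newborn neurons, and the 3 left-out clusters.

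With no doublets left out, Rnd2 was 18.4% of Rnd UMIs in progenitors and 22.6% in newborn neurons, and Tiam2 61.5% of Tiam UMIs in newborn neurons. Of 72 recomputed log2 ratios of neurons to progenitors, 66 moved by less than the spread between libraries. Without thinning, the share of cells with a UMI in neurons minus that in progenitors (mean of the 4 libraries' differences) went from 7.6 to 3.64 percentage points for Rnd2, -10.3 to -22.9 for Rnd3, 9.13 to 13.2 for Rac3, -12.2 to -23.2 for Rhoa and 3.18 to 0.23 for Tiam1, and turned from 0.23 (SD 2.45) to -11.5 for Rac1 and from 5.57 to -5.27 for Cdc42. Depth limits Rac3 in newborn neurons, at 21 to 30 UMIs per library.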
